A study of Mus musculus with 13 samples.

Results

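The regions described here are the distal AEBP2 regions without H3K27me3. These are the places where AEBP2 was called away from the starts of protein-coding genes and away from called peaks of the Polycomb mark. Peaks of the 2 AEBP2 ChIP-seq lists were joined where they shared at least 1 bp, and a joined region was kept if it overlapped no peak of either H3K27me3 list and did not come within 1 kb of the start of a protein-coding gene. Of 7005 joined AEBP2 regions, 918 (13.1%) met this rule. Of the rest, 2309 lay at a promoter without H3K27me3, 1436 were distal with H3K27me3 and 2342 lay at a promoter with H3K27me3. Presence of an AEBP2 peak, absence of an H3K27me3 peak and distance from gene starts are what the regions were chosen by, and are not results.

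AEBP2 is a zinc finger protein that joins PRC2, the Polycomb complex whose EZH1 or EZH2 subunit methylates lysine 27 of histone H3. PRC2 and H3K27me3 are found mainly at CpG islands of silent developmental genes in mouse embryonic stem cells (mESCs). An AEBP2 peak with no H3K27me3 peak is therefore a call of the cofactor without a call of the product of the complex. That no peak was called does not show that the mark is absent. Such calls can be set beside a second ChIP, made through a tag on AEBP2, which the rule did not use.

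All 5 peak lists came from cells labelled wild-type, strain 129/1, a male (XY) mESC line. AEBP2 was precipitated with a polyclonal antibody in 2 samples, replicates 1 and 2, and the histone mark in 2 more with an antibody labelled only anti-H3K27, which the study's methods name H3K27me3. The tagged protein, FS2-AEBP2, was precipitated through its Flag-StrepII tag in 1 sample without a replicate. The paper's methods give E14 mESCs expressing the tagged protein from a plasmid for mass spectrometry. Their ChIP section names no cell line. It gives another protocol for FS2-AEBP2, with beads blocked with albumin and yeast tRNA. Tag, protocol and any difference in cells therefore cannot be told apart in this sample. The lists held 2879 and 6779 AEBP2 peaks, 14112 and 9288 H3K27me3 peaks and 2884 FS2-AEBP2 peaks. The depth behind them is not stated, since the lists hold no read counts and the numbers in their file names are not explained in the sources used here. Intervals given for shares of regions are 95% Wilson intervals that cover counting error over regions only, not the spread between cultures.

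The sequences under the regions fell into several kinds, of which those that carry the results are printed here in mm9, 5′ to 3′. Of the 5 regions with the highest FS2-AEBP2 score, 4 held a sequence that folds as a tRNA gene, and these are shown because tRNA genes account for most of the FS2-AEBP2 overlap described further on. Capitals mark 9 bases of the B box, the internal promoter element bound by TFIIIC.
tRNA-Tyr-GTA, chr13:23524859-23524946 (minus strand): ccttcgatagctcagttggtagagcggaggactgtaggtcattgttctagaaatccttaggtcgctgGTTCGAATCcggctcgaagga
tRNA-Lys-CTT, chr11:48647385-48647457 (minus strand): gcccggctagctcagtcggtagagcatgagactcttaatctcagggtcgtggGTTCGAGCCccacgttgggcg
tRNA-Leu-TAA, chr19:12085576-12085658 (minus strand): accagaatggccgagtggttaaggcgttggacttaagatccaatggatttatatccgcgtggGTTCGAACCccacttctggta
tRNA-Val-CAC, chr11:48632044-48632116 (plus strand): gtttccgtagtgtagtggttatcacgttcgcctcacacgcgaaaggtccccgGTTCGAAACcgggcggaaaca

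A second kind was CpG-rich sequence without a protein-coding gene start, shown for the member near Vav2. Among members called in both AEBP2 lists, it is 1 of the 10 with the highest mean percentile of score. Tandem repeat was another kind, shown for the member near Mettl7a3, also among those 10. These are the 200 central bases of each region on the plus strand, with CpG in capitals.
Vav2, 15211 bp from its start, chr2:27297984-27298183 (plus strand): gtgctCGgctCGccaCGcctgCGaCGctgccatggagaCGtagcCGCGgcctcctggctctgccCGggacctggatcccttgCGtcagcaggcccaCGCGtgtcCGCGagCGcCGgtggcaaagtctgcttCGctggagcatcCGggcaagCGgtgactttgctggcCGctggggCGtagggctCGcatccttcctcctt
Mettl7a3, 10122 bp from its start, chr15:100154580-100154779 (plus strand): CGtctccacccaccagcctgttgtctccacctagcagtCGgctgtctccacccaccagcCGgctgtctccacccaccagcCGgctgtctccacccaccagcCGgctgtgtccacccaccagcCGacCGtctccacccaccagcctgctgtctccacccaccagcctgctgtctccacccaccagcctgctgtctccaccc

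Matches to the binding motifs of NRF1 and CTCF were more frequent than in distal regions with H3K27me3, and 1 match of each is shown in capitals within 80 bases of the plus strand. The NRF1 match lies in the Ubr4 member, and the CTCF match in an intergenic member near Olfr750 with a score of 18 in replicate 1, 21 in replicate 2 and 14 for FS2-AEBP2, which also holds 2 tRNA-gene-like sequences.
NRF1 match, Ubr4, chr4:138936302-138936381 (plus strand): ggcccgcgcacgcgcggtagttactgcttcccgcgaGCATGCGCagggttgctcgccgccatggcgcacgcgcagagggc
CTCF match, near Olfr750, chr14:51684602-51684681 (plus strand): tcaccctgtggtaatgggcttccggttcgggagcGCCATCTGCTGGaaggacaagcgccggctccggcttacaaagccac

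The regions were short, and most were called in replicate 2 alone, as at promoters without H3K27me3. Their median length was 407 bp (quartiles 250 and 739 bp), against 536 bp at promoters without H3K27me3 and 1284 bp in distal regions with H3K27me3. A peak of replicate 2 alone made 695 regions (75.7%, against 61.7% of all AEBP2 regions and 77% at promoters without H3K27me3), a peak of replicate 1 alone made 67 (7.30%), and 156 regions (17%, interval 14.7% to 19.6%) held a peak of both lists, where 34.4% of all AEBP2 regions and 19.8% of promoters without H3K27me3 did. Without replicate 2 the rule left 232 regions. The AEBP2 score, a whole number used here only to rank peaks within a list, had a median of 7 in replicate 1 and 6 in replicate 2 among the members, with ranges of 1 to 92 and 1 to 137. The inner structure was plain, since 95.1% of the replicate 2 peaks in the regions had 1 inner block, against 72.6% of all peaks of that list.

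By position of the midpoint, 357 regions (38.9%) were intergenic, 315 (34.3%) intronic, 139 (15.1%) in coding exons, 74 (8.06%) in UTR exons and 33 (3.59%) in exons of non-coding transcripts. In the same order, the shares of distal regions with H3K27me3 were 36.9%, 31.3%, 20.2%, 6.62% and 4.94%. Coding exons held 17.5% of the midpoints at promoters without H3K27me3. The median distance to the nearest protein-coding gene start was 13954 bp, and 173 regions (18.8%) lay over 50 kb from it. The nearest H3K27me3 peak lay at a median distance of 36574 bp, with 55 regions closer than 1 kb. At the edges of the rule, the members nearest to a gene start lay 1023, 1025 and 1027 bp from Akt1, 4933422H20Rik and Ankrd13a, and the removed regions farthest inside the line lay 997, 985 and 984 bp from Vav2, Bhlhe40 and Acbd4. The members nearest to an H3K27me3 peak lay 2, 6 and 12 bp from it, and the distal regions removed with the smallest overlap shared 3, 4 and 9 bp. These values describe where the rule cuts.

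The label distal holds only for the first start of each gene. Another annotated transcript start lay within 1 kb of 273 regions (29.7%), where 30.6% of all distal AEBP2 regions had one. In 218 of the 273 it belonged to a protein-coding gene, and in 188 to a transcript that is itself protein-coding. A start of a long non-coding gene lay at 61 regions, a pseudogene start at 10 and a small RNA gene start at 12. The share did not differ detectably from the 31.1% of distal regions with H3K27me3 (members minus others -1.39 percentage points, interval -7.53 to 4.93). This and the differences of shares below carry Newcombe intervals at a level of 99.87%, so that 39 of them are covered jointly at 95%. Taking promoters from every protein-coding transcript left 734 regions.

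CpG-island-like sequence, a stretch of 500 bp windows with a G and C content of 55% or more and CpG at 0.65 or more of the number expected from base content, was found at 428 regions (46.6%, interval 43.4% to 49.9%), where 84.8% of all AEBP2 regions had it. The share was lower than at promoters without H3K27me3 (97.4%, members minus promoters -50.8 points, interval -56.1 to -45.4) and lower than in distal regions with H3K27me3 (70.0%, -23.4 points, interval -29.8 to -16.7). Here and for FS2-AEBP2 below, 1 bp of overlap counted, so longer regions can overlap more. The differences were not adjusted for length (median 407 bp in members, 1284 bp in distal regions with H3K27me3). The transcript starts and the islands coincided, since 220 of the 273 regions at another transcript start were CpG-island-like (80.6%), against 208 of the 645 without an annotated start (32.2%).

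**Figure D1:**
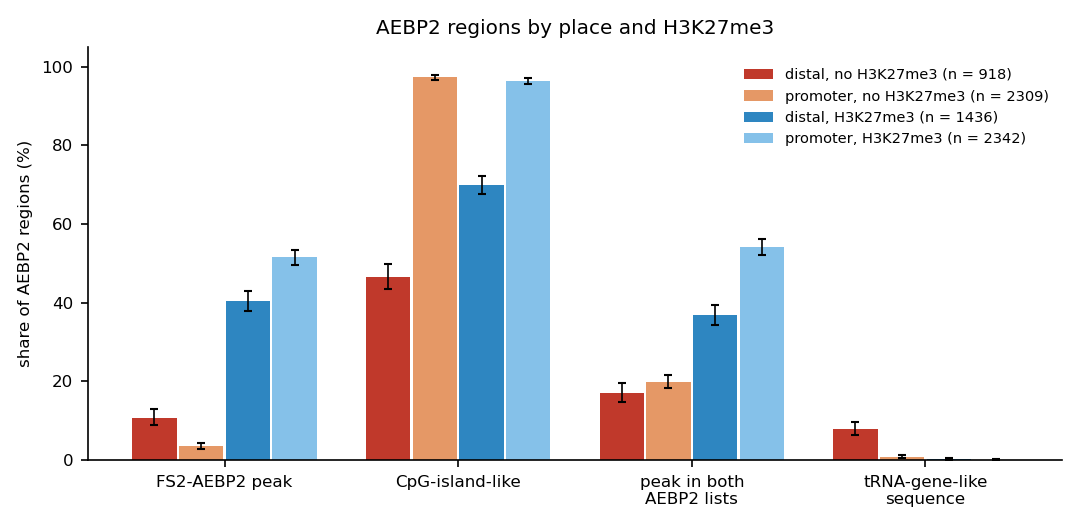
Share of AEBP2 regions (y axis, %) with an FS2-AEBP2 peak, with CpG-island-like sequence, with a peak in both AEBP2 lists and with a tRNA-gene-like sequence, for the 4 classes of region (bars, number of regions in the legend) with 95% Wilson intervals. The distal regions without H3K27me3 have the lowest CpG-island-like share (46.6%) and the highest tRNA share (7.84%), and an FS2-AEBP2 share (10.8%) between the promoters without H3K27me3 and both classes with the mark.

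Some of the strongest regions lay at CpG-island-like starts of other transcripts. Of the 18 members with a score of 50 or more in either list, 10 were CpG-island-like (55.6%, against 46.6% of all members). Another transcript start lay at 8 of the 18 (44.4%, against 29.7%). These are small counts, given with no test. The 10 members with the highest mean percentile of score in both lists are all among the 18. Of these 10, 7 were CpG-island-like. Another transcript start lay at 6 of the 10 (29.7% of all members). None of the 10 overlapped an FS2-AEBP2 peak, where only 10.8% of all members did. The first was chr10:119645227-119646424 in a UTR exon of Tmbim4, with scores of 92 in replicate 1 and 137 in replicate 2, 6041 bp from the gene start of Irak3, a brake on Toll-like receptor signalling. The second, chr4:44085134-44085856, lay in a UTR exon of Gne, which makes sialic acid, and scored 86 and 83. A region in Scp2, a lipid carrier gene of peroxisomes, scored 51 and 97 at chr4:107743495-107744291. In Ubr4, a ubiquitin ligase gene, the region chr4:138936109-138936750 scored 45 and 106 and held the NRF1 match printed above. A high rank in both replicates is what these regions were chosen by, and is not a result.

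The group also held regions away from any annotated start. The region near Vav2, a guanine nucleotide exchange factor gene, was intergenic and CpG-island-like at chr2:27297764-27298403 and scored 51 and 102. An intronic region of Dapp1 (chr3:137632858-137633354) scored 47 and 77 and was not CpG-island-like. The region near Znhit1, a subunit gene of a chromatin remodeller, scored 72 and 49 at chr5:137476260-137477139, with 50.7% G and C and 2 CpG in its 300 central bases. The tandem repeat near Mettl7a3 scored 40 and 118. The last of the 10, in Wiz (38 and 54) and in 1110012J17Rik (27 and 58), lay at another transcript start. Base content thus varied widely even among regions that ranked high in both replicates.

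**Figure D2:**
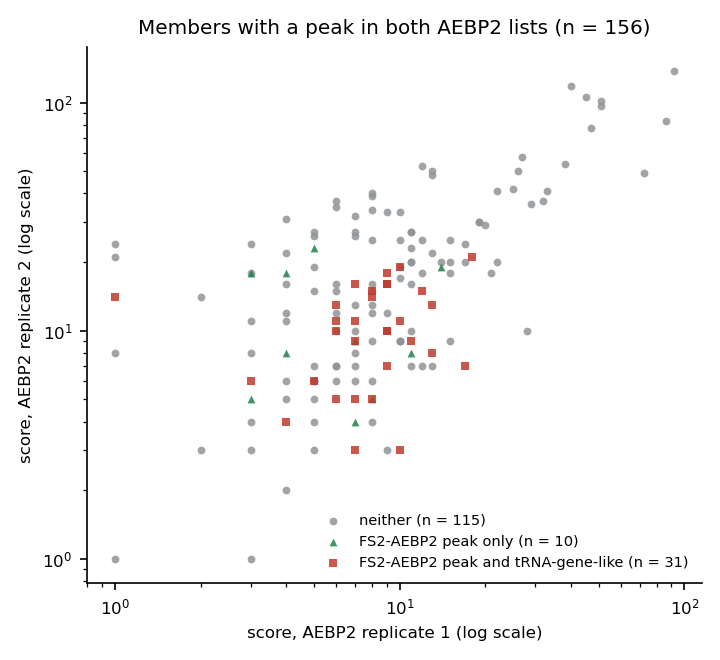
AEBP2 score in replicate 1 (x axis) against replicate 2 (y axis), both on log scales, for the 156 members with a peak in both lists, marked by whether they overlap an FS2-AEBP2 peak and hold a tRNA-gene-like sequence. The 31 members with both (squares) lie at low to middle scores, and none of the regions above a score of 30 in either replicate has an FS2-AEBP2 peak.

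FS2-AEBP2 was called at few of the regions. It overlapped 99 of 918 (10.8%, interval 8.94% to 13.0%), where 28.1% of all AEBP2 regions had an FS2-AEBP2 peak. The share was lower than the 40.4% of distal regions with H3K27me3 (-29.6 points, interval -34.7 to -24.1) and higher than the 3.59% of promoters without H3K27me3 (+7.19 points, interval 3.97 to 11.1). The second difference did not hold without tRNA genes, as it was 1.58 points (interval -0.638 to 4.59) once regions with a tRNA-gene-like sequence were left out of both classes. It also depended on the list, and was 16 points (7.56 to 26.1) without AEBP2 replicate 2. FS2-AEBP2 overlapped none of the 18 members with a score of 50 or more in either replicate (upper limit 17.6%), 4 of 63 with a highest score of 20 to 49, 42 of 155 with 10 to 19 and 53 of 682 below 10.

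tRNA genes are transcribed by RNA polymerase III from promoters inside the gene, the A box and the B box, and mouse tRNA genes are clustered, a large cluster lying beside the histone genes of chromosome 13. A scan of mm9 for the B box, the A box and 3 paired stems found 352 tRNA-gene-like sequences, of which 335 (95.2%) had a RefSeq tRNA gene with the same anticodon on the same chromosome (402 RefSeq genes, names only, since RefSeq uses a later build). The scan was added after the pattern had been seen in the data, so its counts are a description with no test. Of the 918 regions, 72 (7.84%, interval 6.27% to 9.76%) held at least 1 such sequence, where 1.36% of all AEBP2 regions did. There were 20 such regions at promoters without H3K27me3 (0.866%), 3 in distal regions with H3K27me3 (0.209%) and 0 of 2342 at promoters with H3K27me3 (upper limit 0.164%). The 72 regions held 109 of the 352 sequences, with anticodons for all 19 amino acids that the scan found.

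The tRNA genes held most of the FS2-AEBP2 overlap. Of the 72 regions with a tRNA-gene-like sequence, 62 (86.1%, interval 76.3% to 92.3%) had an FS2-AEBP2 peak, against 37 of the other 846 (4.37%, interval 3.19% to 5.97%). All 31 tRNA regions called in both AEBP2 lists had one. The FS2-AEBP2 score at the 62 had a median of 20.5 (3 to 68), against 9 (1 to 63) at the 37 other members and 9 over the whole FS2-AEBP2 list. The AEBP2 score there was moderate, with a median of 8 in each replicate, against 6 and 5 in the members without a tRNA gene. The tRNA regions had less G and C in their 300 central bases (median 46.7% against 61%), and 25 of 72 were CpG-island-like. A looser scan added 239 sequences to the genome, and none of them lay under a peak of AEBP2 or FS2-AEBP2.

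Seen from the genes, 169 of the 352 sequences (48.0%) lay under an FS2-AEBP2 peak, 122 (34.7%) under a peak of AEBP2 replicate 2 and 73 (20.7%) under a peak of replicate 1. H3K27me3 covered 2 and 4 of them. In an AEBP2 region of any class, 119 of 137 sequences also had FS2-AEBP2 (86.9%), and of the 215 outside AEBP2 regions 50 did (23.3%). FS2-AEBP2 and AEBP2 replicate 2 covered the highest share of sequences at the first base and replicate 1 at 50 bp into them, and all 3 were down to between 3.41% and 5.68% of sequences 1 kb away on either side. Identical copies exist for 226 of the 352 (64.2%), so reads at these genes can be hard to place, and how the aligner treated them is not given in the sources used here. The part that copy number and the yeast tRNA of the FS2-AEBP2 beads have in these calls was not tested.

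**Figure D3:**
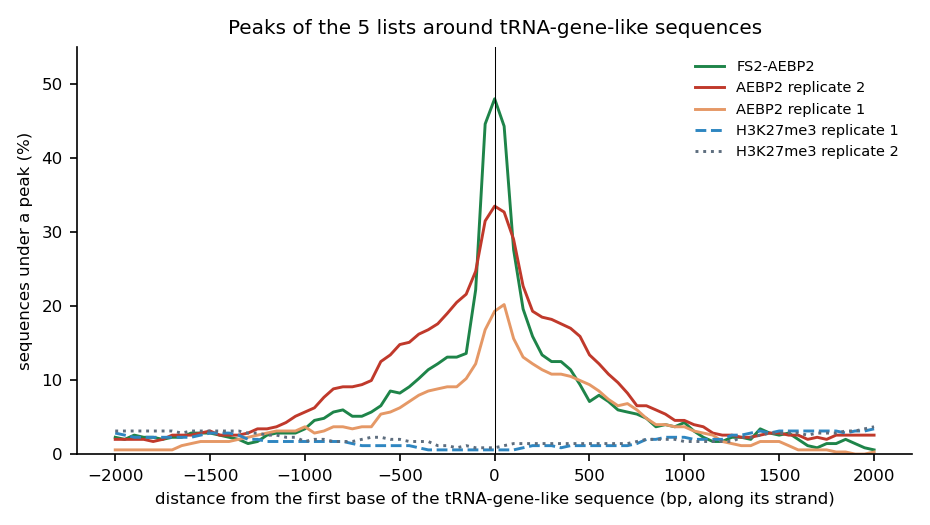
Share of the 352 tRNA-gene-like sequences under a peak (y axis, %) by distance from the first base of the sequence along its strand (x axis, bp), for each of the 5 peak lists (lines). FS2-AEBP2 reaches 48.0% and the AEBP2 replicates 33.5% and 19.3% at the first base, while both H3K27me3 lists stay below 5% throughout.

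Calls over tRNA genes varied by anticodon and by chromosome, which overlap. Among the sequences with a cysteine anticodon, 2 of 50 lay under an FS2-AEBP2 peak (4.00%), against 18 of 20 with an arginine anticodon (90.0%) and 17 of 22 with a serine anticodon (77.3%). Of the 50, 41 lay on chromosome 6 and 29 were copies of 1 identical sequence, so these traits overlap. Of the 41, 29 had an identical copy, and none of the 41 lay under a peak of AEBP2 or FS2-AEBP2. FS2-AEBP2 was called at 2 of the 9 cysteine sequences elsewhere and 2 of the 4 other sequences on chromosome 6. Over all anticodons, 73.4% of the 109 sequences in members had an identical copy, against 64.2% of the 352. Which trait goes with low calls was not tested. On chromosome 6, 0 of 45 sequences lay under a peak of either AEBP2 list and 2, neither of them cysteine, under an FS2-AEBP2 peak. On chromosome 11 27 of 44 lay in a member, and on chromosome 13 32 of 91 did. The largest cluster of members, with no gap over 50 kb, held 11 regions within chr13:23504554-23613910, beside the butyrophilin gene Btn1a1 and Hist1h4h. All 11 had an FS2-AEBP2 peak and 10 held a tRNA-gene-like sequence. Clusters of 8 and 6 members at chr13:21947023-22067047 and chr13:21252019-21351847 had FS2-AEBP2 at 7 and 5, and a tRNA-gene-like sequence at 6 in each.

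The 5 members with the highest FS2-AEBP2 score lay on chromosomes 11, 13 and 19. The Tyr-GTA gene printed above lies in chr13:23524442-23525019, with an FS2-AEBP2 score of 68, an AEBP2 score of 10 in replicate 2 and no peak in replicate 1. The region chr13:23558900-23559128 near Btn1a1 had an FS2-AEBP2 score of 63 and AEBP2 scores of 4 and 18, and held no sequence that passed the scan. Near Gm12184, chr11:48647286-48648066 held 2 tRNA-gene-like sequences and scored 48 for FS2-AEBP2 and 10 and 11 for AEBP2. The region near Olfr1423 scored 48, 1 and 14, and that near Trim41 scored 43, 13 and 8. Within the AEBP2 lists these regions ranked widely, from a percentile of 1.37 (Olfr1423, replicate 1) to 84.5 (Btn1a1, replicate 2).

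Of the 37 members with FS2-AEBP2 but no tRNA-gene-like sequence, 4 are described here that lay at genes of other non-coding RNAs. The annotated 7SK gene, a polymerase III transcript that holds back P-TEFb, lay in a member with scores of 7 in AEBP2 replicate 2 and 6 in FS2-AEBP2. At Malat1, a nuclear long non-coding RNA gene, the region chr19:5800483-5801281 scored 10 in replicate 1 alone and chr19:5802056-5803852 scored 19 in replicate 2 alone, both under an FS2-AEBP2 peak scoring 17. At Neat1, which builds paraspeckles, a region scored 5 in replicate 1 and 3 in FS2-AEBP2. These genes were picked after their values were seen, and the peaks of the replicates at Malat1 did not overlap each other.

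Exons made up at least 80% of the bases of 138 regions (15%), and 75 of these had no other transcript start. This share is given for the members only, so it does not set them apart from other AEBP2 regions. By midpoint, coding exons held 15.1% of members, 20.2% of distal regions with H3K27me3 and 17.5% of promoters without H3K27me3. Among the exonic regions, those on 3 genes lay on several exons each and were called in 1 replicate alone. Whether DNA without introns, such as cDNA or plasmid, was in these libraries was not tested. The first was Xist (ENSMUSG00000086503, chrX:100655714-100678556, minus strand), the long non-coding RNA gene that silences the inactive X chromosome of female cells. In replicate 2, 3 regions covered 89.9% of its exonic bases and 8.93% of its intronic bases. The region chrX:100669057-100678609, the longest member at 9553 bp, scored 56 and matched exon 1 (100669055 to 100678556) to within 2 bp at the 3′ end. The second, chrX:100657911-100663210, scored 36 and lay inside exon 7. The remaining one, chrX:100664128-100665158, scored 27 and had 3 inner blocks over exons 4, 5 and 6. Of the bases in inner blocks of these regions, 99.3% were exonic, where exons make up 74.6% of the gene. Replicate 1, FS2-AEBP2 and both H3K27me3 lists had no peak over the gene, in cells labelled XY.

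The second gene was Jarid2 (ENSMUSG00000038518, chr13:44824843-45017012, plus strand), which encodes a cofactor of PRC2. In replicate 2, 8 regions lay on 10 of its 19 exons and carried some of the highest scores of that list. Exon 7 was covered by chr13:44991597-44991890 with a score of 137, exon 8 by chr13:44997570-44998635 with 114 and exon 9 by chr13:45001563-45002135 with 125, which ranked 6th, 18th and 11th in the list. Exons 4, 5 and 6 scored 9, 21 and 39, exons 15 to 17 shared a region scoring 54, and exon 19 scored 30. The ends of the exon 7, 8 and 9 regions lay between 8 and 39 bp beyond the exon. The region on exon 19 ended at 45015354, where the coding sequence ends at 45015318 and the exon goes on well beyond it. Inner blocks were 89.5% exonic, where exons make up 2.61% of the gene. No other list had a peak over these 8 regions.

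The last of these genes was Smchd1 (ENSMUSG00000024054, chr17:71693829-71824683, minus strand), whose product takes part in silencing of the inactive X chromosome. Here the peaks came from replicate 1 alone, at exons 36, 32 and 29 of 48, with scores of 18, 13 and 14 and lengths of 165, 147 and 183 bp. Their inner blocks were 94.3% exonic, where exons make up 5.39% of the gene. The 3 genes were singled out after their values were seen. Of the 18 members with a score of 50 or more, 13 had a peak in both lists, and the other 5 were 4 of the Jarid2 regions and Xist exon 1. Leaving out the 14 regions on these genes left 904 members and moved none of the differences of shares across 0.

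**Figure D4:**
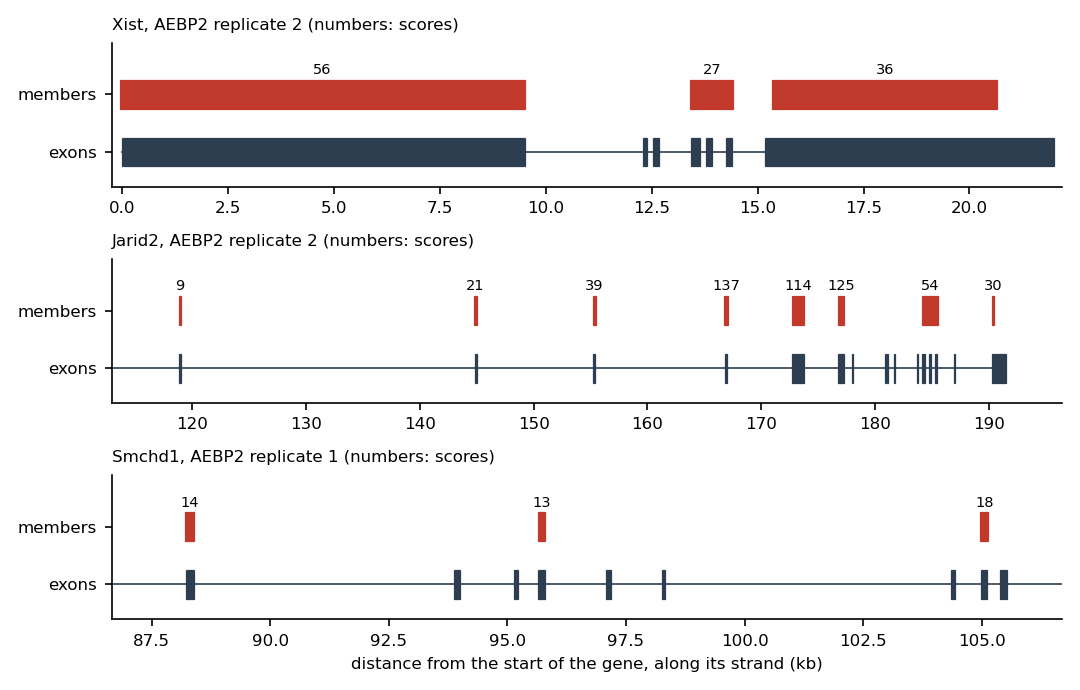
Exons (lower row) and members (upper row, AEBP2 score above each) along Xist, Jarid2 and Smchd1 by distance from the start of the gene along its strand (x axis, kb). The Jarid2 panel shows the stretch that holds its 8 exonic members and the Smchd1 panel the stretch that holds 3. Members stand over exons in all 3 genes, with the highest scores (137, 114 and 125) on Jarid2 exons 7, 8 and 9.

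The 300 central bases were searched on both strands for 17 motifs, and 11 of 34 differences had an interval that left out 0. In the longer distal regions with H3K27me3 these bases are a smaller part of the region. The NRF1 motif GCATGCGC was found in 72 regions (7.84%), where 0.328% of all 300-base bins of the genome hold it, and in 1.25% of distal regions with H3K27me3 (+6.59 points, interval 3.83 to 10.0). NRF1 drives genes of respiration and growth from CpG-rich promoters. The difference from promoters without H3K27me3 (11%) was -3.11 points (interval -6.42 to 0.748). NRF1 matches were in 10.7% of CpG-island-like members and 5.31% of the others. The NRF1 difference from distal regions with H3K27me3 kept its interval clear of 0 under the 15 alternatives that can change it.

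The CTCF motif, the binding site of the main insulator protein, was in 30 regions (3.27%), where 0.143% of genome bins hold it. The share was higher than at promoters without H3K27me3 (0.606%, +2.66 points, interval 1.03 to 5.16) and in distal regions with H3K27me3 (0.348%, +2.92 points, interval 1.19 to 5.41). Of the 30, 23 were not CpG-island-like and 1 lay at another transcript start. Of the 30, 1 held a tRNA-gene-like sequence, the one near Olfr750. A member in an intron of St6galnac3 (chr3:153337925-153338463) scored 1 and 24. The AP-1 motif TGANTCA was also more frequent than in either other class (7.84% against 2.43% and 4.04%, +5.42 and +3.80 points), but 8.83% of genome bins hold it. Without AEBP2 replicate 2, the CTCF difference from promoters (2.22 points) and the AP-1 difference from distal regions with H3K27me3 (4.64 points) had intervals that held 0. With a peak in both AEBP2 lists, all 4 CTCF and AP-1 differences did, among them that of CTCF from distal regions with H3K27me3 (1.92 points, -0.553 to 9.47), which also held 0 with scores at or above the list median (2.10 points, -0.0925 to 6.16).

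Motifs of broad promoters were rarer than at promoters. The SP/KLF motif GGGGCGGGG was in 7.73% of regions and 16% of promoters without H3K27me3 (genome bins 0.517%), the ETS motif CCGGAAGT in 2.07% and 5.80% (0.183%), the YY1 motif AAGATGGCG in 1.53% and 4.59% (0.303%), and the BANP motif TCTCGCGA in 1.42% and 4.07% (0.0249%). All 4 differences left out 0, the largest being -8.25 points for SP/KLF (interval -11.8 to -4.19). ETS and YY1 matches were more frequent than in distal regions with H3K27me3 (0.348% and 0.0696%), by 1.72 (0.284 to 3.87) and 1.46 points (0.293 to 3.40). Without AEBP2 replicate 2, of these 6 differences only that of YY1 from promoters left out 0. With promoters of every protein-coding transcript, the ETS and YY1 differences from distal regions with H3K27me3 (1.11 and 1.01 points) also held 0. That of YY1 held 0 with promoters of 2.5 kb and 5 kb as well. Another transcript start lay at 10 of the 19 members with an ETS match and 8 of the 14 with a YY1 match. Among motifs of pluripotency factors, the octamer was in 5 regions (0.545%, genome bins 2.62%) and SOX in 3 (0.327%, genome bins 1.67%), both below the genome share. The other classes of AEBP2 region were below it too, with 0.476% to 0.975% for the octamer and 0.303% to 0.512% for SOX. Shares were not adjusted for base content, and the members had a median of 60.0% G and C in these bases. ESRRB was in 6 regions (0.654%), near the 0.639% of genome bins. None of the differences for these 3 motifs left out 0. The B box letters GGTTCGA, searched after the tRNA genes had been seen, were in 52 members (5.66%), where 0.401% of genome bins hold them, and 41 of the 52 held a tRNA-gene-like sequence.

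**Figure D5:**
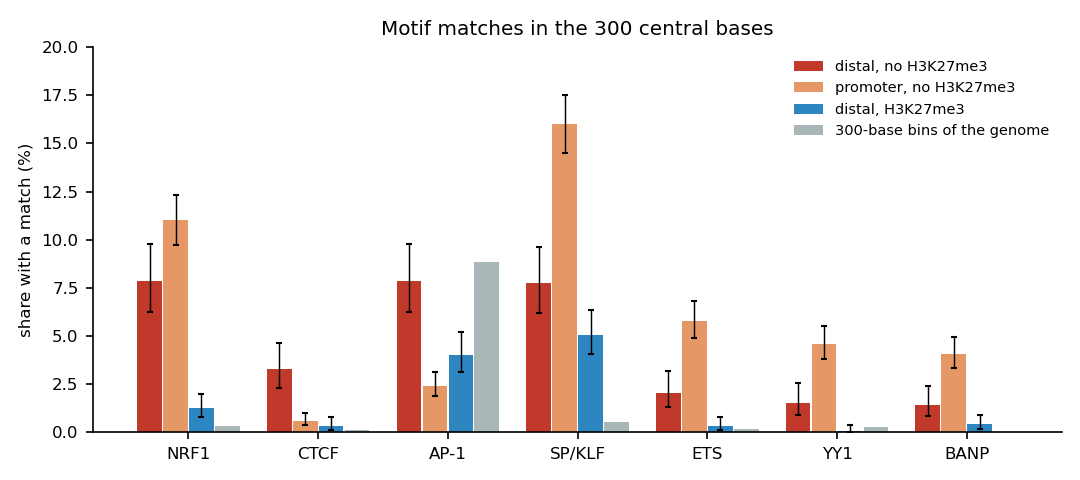
Share of regions with at least 1 motif match in the 300 central bases (y axis, %) for 7 motifs (x axis) in distal regions without H3K27me3, promoters without H3K27me3, distal regions with H3K27me3 and all 300-base bins of the genome, with 95% Wilson intervals for the regions. NRF1 (7.84%) and CTCF (3.27%) stand above both the distal regions with H3K27me3 and the genome, whereas AP-1 (7.84%) is near the genome's 8.83%.

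Tandem repeats made up a small further group, described with no test. In 24 regions (2.61%, interval 1.76% to 3.86%) at least 70% of the 300 central bases equalled the base a fixed number of positions away, at a shift of 2 to 100 bases, where 0.405% of genome bins did. There were 2 such regions at promoters without H3K27me3 (0.0866%) and 14 in distal regions with H3K27me3 (0.975%). Of the 24, 8 had a peak in both AEBP2 lists, where 156 of all 918 members and 34.4% of all AEBP2 regions did. An FS2-AEBP2 peak lay at 2 of the 24, and at 99 of the 918. There was no CpG-island-like sequence at 20 of the 24, and none at 490 of the 918. With counts this small, no difference in FS2-AEBP2 or in calls by both lists is claimed. The region near Mettl7a3 printed above, with scores of 40 and 118, repeated every 21 bases with 85.3% identity. A region near Srbd1 scored 25 and 42 with a repeat of 52 bases, and an intronic region of Gpc6 scored 12 and 53 with a repeat of 31 bases.

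Genes of pluripotency, PRC2 and imprinting were checked by list, where 13.1% of all AEBP2 regions were members. Of 12 AEBP2 regions nearest to the start of 1 of 24 annotated pluripotency genes, 1 was a member, in a coding exon of Tbx3 at chr5:120130296-120131098, with a score of 8 in replicate 2, an FS2-AEBP2 score of 24 and an H3K27me3 peak 1482 bp away. Of 8 nearest to 11 annotated genes of PRC2 subunits, 2 were members, both in Jarid2, where chr13:44828795-44829447 lay at another transcript start with a score of 9 and the other is the region on exon 4. The other 7 regions on Jarid2 exons lay nearer to the start of Dtnbp1. Of 30 nearest to 29 annotated imprinted genes, 1 was a member, 6191 bp from Trappc9 with a score of 4 in replicate 1.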

How the data were processed

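ChIP-seq peaks of 5 mESC samples labelled wild-type were used, 2 for AEBP2, 2 for H3K27me3 and 1 for FS2-AEBP2. Inputs, SUZ12 and AEBP2 KO samples were not used here. Per the submitters' processing notes, the authors used Bowtie, SAMtools, Picard and MACS2 2.0.10.2 with mm9, and they deposited 1 list per sample in which each peak has a whole-number score whose scale is not stated. The score deposited by the authors served for ranks inside 1 list and nothing else. The fold or read depth behind it is not stated. The H3K27me3 files carry replicate numbers that differ from the labels, and the labels were followed.

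Joining and classing of peaks (autosomes, X and Y) was done with Python 3.11.15, numpy 2.4.6, pandas 2.3.3 and scipy 1.17.1, against 22367 protein-coding gene starts of GENCODE vM1. CpG-island-like windows of 500 bp were stepped by 10 bp. Motifs were searched in 300 bases at the region centre. The tRNA scan required the B box letters, 6 of 7 acceptor pairs and 16 of 17 pairs in 3 stems, within 68 to 120 bases. Differences of shares were given Newcombe intervals, and no test over samples was made, since each list is 1 sample.  The steps were tested on simulated data.

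The members, gene lists and motifs were chosen with earlier results of these data known. Regions were named by rule: the 10 with the highest mean score percentile in both AEBP2 lists, the 5 longest, the 5 with the highest FS2-AEBP2 score, those at the edges of the rule, and members nearest to listed pluripotency, PRC2 and imprinted genes. Other named regions were chosen after their values were seen. Of the 5 longest, those not described in the results lay near Spaca7 (2950 bp, score 9 in replicate 2), 1700009P17Rik (2207 bp, scores 9 and 18) and Ncrna00085 (2181 bp, score 5 in replicate 2). Alternatives changed the lists used, the joining, the promoter width, the H3K27me3 distance, the FS2-AEBP2 overlap, the CpG criteria and the motif window. The alternatives that leave out tRNA or exon regions and the looser tRNA scan were added after seeing the data.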

Additional observations from a re-analysis of the deposited data

How the results depend on the processing

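No paired analysis was possible because no result comes from a fit across samples in which the replicate number could be a block. As a change of the rule, letting only the H3K27me3 list of the same replicate number remove a region left 1043 regions. The number of regions was 232 to 1033 when 1 AEBP2 or H3K27me3 list was left out, 156 with a peak in both AEBP2 lists and 380 with scores at or above the list median. The number with a tRNA-gene-like sequence was 38 to 74 when 1 list was left out, and 31 with a peak in both lists. The number of motif differences that left out 0 was 5 to 12 when 1 list was left out, 1 (that of NRF1) with a peak in both lists and 4 with scores at or above the median. The low values for 1 list left out were those without AEBP2 replicate 2, and fewer regions enter these settings. The higher FS2-AEBP2 share than at promoters without H3K27me3 was 1.58 points, with an interval that held 0, without tRNA-bearing regions. With that exception, the differences in FS2-AEBP2 and CpG-island-like shares kept their direction and stayed clear of 0 under the 15 alternatives that can change each. The difference in share at another transcript start (-1.39 points) held 0 throughout, and was 0.197 with no H3K27me3 peak within 5 kb and 0.437 without tRNA-bearing regions. Among the 11 motif differences, that of NRF1 from distal regions with H3K27me3 ranged from 4.99 to 12.5 points, and 28 of 165 values for the 11 no longer left out 0. The unstated depth of the lists limits any statement on regions that were not called.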

Other observations

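Smaller groups of regions with FS2-AEBP2 lay outside tRNA clusters. At chr6:128710139-128793441, between the natural killer receptor genes Klrb1c and Klrb1b, 3 of 4 regions had an FS2-AEBP2 peak, with scores of 5, 2 and 19, and none held a tRNA-gene-like sequence. At chrX:166414771-166429593, in Mid1, 2 of 4 regions had one, with scores of 5 and 6. Near Shf, 2 regions had FS2-AEBP2 scores of 25 and 20. Of the 460 FS2-AEBP2 peaks that overlapped no H3K27me3 peak, 129 (28.0%) held a tRNA-gene-like sequence.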
